A study of Mus musculus with 6 samples.

Results

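Genes for heterotrimeric G protein subunits and for regulators of G protein signalling (RGS proteins) were examined in the dorsal root ganglion (DRG) of control and Tlx3cko mice. The members were taken by gene symbol from the rows of the deposited count table: protein-coding genes named Rgs or Gng with a number, Gnb1 to Gnb5, and 9 Gα genes of the i/o/z, s/olf and 12/13 classes. This gave 45 genes, of which 41 had at least 10 counts in total and are described, out of 47937 rows in the table and 20006 rows that reached this minimum. The other 4 were all RGS genes. Rgs13 and Rgs21 had 0 counts in all 6 libraries, Rgs22 had 2 counts in total, and Rgs1 had 7 counts, all of them in Tlx3cko replicate 3.

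Total RNA of DRGs was sequenced from 3 mice of each genotype, all on the C57BL/6 strain and about 2 months old. Control mice are given as wild type in the labels, and Tlx3cko mice as Tlx3f/f;SNS-cre, which carry floxed Tlx3 alleles and a Cre driven by the Nav1.8 (SNS) promoter. That promoter is active in most nociceptive neurons from late embryonic life, so DRG neurons that do not use it keep Tlx3 intact. Each library is 1 sample of its genotype, and nothing in the labels says whether ganglia of several mice were pooled. Library totals ranged from 11458299 to 18775628 counts. By the female-specific Xist (591 and 493 counts) control replicates 1 and 2 stood apart, whereas the other 4 libraries held at most 2 Xist counts and at least 273 of the Y-linked Ddx3y. The genotypes were therefore not matched for sex. In a fit with sex as a covariate, control replicate 3 alone stands for the controls in the genotype term. Tests were made with edgeR over all genes, and each log2 fold change is Tlx3cko over control with its standard error (SE). Tlx3 itself had 1828, 2262 and 2433 counts in controls against 1717, 1052 and 1475 in Tlx3cko DRGs (log2 fold change -0.46 ± 0.09 SE, edgeR adjusted p = 0.0122). This call was lost on leaving out control 2, Tlx3cko 2 or Tlx3cko 3. With sex as a covariate the log2 fold change of Tlx3 was -0.38. All 5 pan-neuronal markers (Rbfox3, Uchl1, Tubb3, Snap25, Elavl4) were detected, with a summed level of 103647 to 109514 normalised counts in controls against 107594 to 119867 in Tlx3cko DRGs. Normalised counts are counts scaled by TMM to the mean effective library size.

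As background, a G protein is a Gα subunit bound to a Gβγ pair. An activated receptor makes Gα exchange GDP for GTP, both parts then act on effectors, and the signal ends when Gα hydrolyses its GTP. RGS proteins speed up that hydrolysis, mostly on Gαi/o and Gαq, and so shorten the signal. In sensory neurons Gαi/o carries the signals of opioid and other inhibitory receptors, Gαs those that raise cyclic AMP, and Gαq those that act through phospholipase C, such as many receptors for itch-inducing agents.

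Of the 41 members, 7 differed between the genotypes, with 0.05 as the limit on the p-value adjusted over all 20006 genes (edgeR quasi-likelihood). Rgs8, Rgs4, Rgs10, Gng2 and Gnao1 were lower in Tlx3cko DRGs, and Rgs11 and Rgs6 were higher. This is 17.1% of the members, beside 4.25% of all genes tested. The share of all genes tested was 2.56% for lower and 1.69% for higher. Most members are well expressed. Among genes with a mean of at least 100 normalised counts, 5.93% of 11637 genes and 7 of 33 members passed. Of the members, 27 had a log2 fold change below 0 and 14 above 0, with a median of -0.13, while the median of all genes tested was 0.00 to 2 decimals. The groups did not overlap in 18 of the 41 members, or 43.9%, beside 19.7% of all genes tested. Among genes with a mean of at least 100 normalised counts, this held for 22.5% of genes and 15 of 33 members. In whole ganglia, fewer cells of a type and less RNA per cell cannot be told apart, and markers of several neuron classes, given with the pathway genes, differed between the same libraries.

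**Figure D1:**
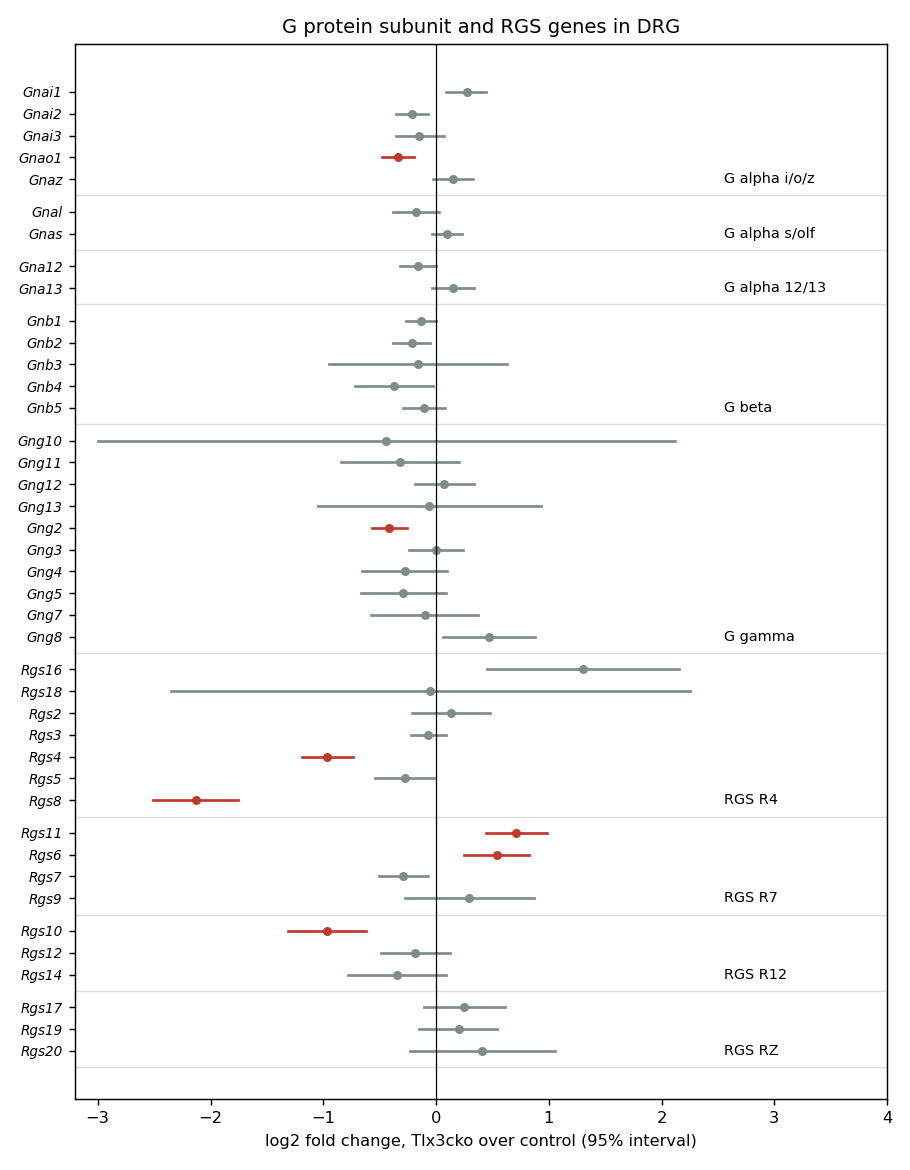
Log2 fold change, Tlx3cko over control (horizontal axis), for the 41 members grouped by class (vertical axis); dots are fitted values, lines are 95% intervals, and red marks an adjusted p under 0.05. The red RGS genes reach -2.13 for Rgs8 and 0.71 for Rgs11, while the red subunit genes Gnao1 and Gng2 lie at -0.34 and -0.42.

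As background, the R4 subfamily consists mostly of small proteins that are little more than an RGS domain, and the R7 subfamily acts as obligate dimers with Gnb5. The R12 subfamily holds Rgs10, Rgs12 and Rgs14, and the RZ subfamily prefers Gαz. Of 17 RGS genes described, 3 were lower and 2 higher past the threshold. This is 29.4% of them, beside 4.25% of all genes tested and 5.93% of those with a mean of at least 100 normalised counts. Both genes called higher were in R7, and the 3 called lower were in R4 and R12.

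Because Rgs8, Rgs4 and Rgs10 had the largest falls, the 250 bases upstream of a RefSeq transcript start of each are shown (RefSeq, GRCm38.p6, strand of the gene). Capitals mark matches to the motifs searched. The Rgs8 sequence is at chr1:153652787-153653036 (plus strand, the most upstream of the starts listed for this gene), the Rgs4 sequence at chr1:169747643-169747892 (minus strand) and the Rgs10 sequence at chr7:128418173-128418422 (minus strand). The Rgs10 window lies inside the annotated span of its gene (128373621 to 128418758), so it is upstream of that RefSeq start only. The end of the Rgs8 window also lies inside the span of its gene, which begins at 153653025.
Rgs8: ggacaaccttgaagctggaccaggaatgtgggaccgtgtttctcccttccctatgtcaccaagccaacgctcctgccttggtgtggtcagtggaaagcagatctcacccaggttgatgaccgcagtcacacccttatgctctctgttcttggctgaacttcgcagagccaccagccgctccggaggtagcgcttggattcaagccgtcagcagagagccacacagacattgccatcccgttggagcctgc
Rgs4: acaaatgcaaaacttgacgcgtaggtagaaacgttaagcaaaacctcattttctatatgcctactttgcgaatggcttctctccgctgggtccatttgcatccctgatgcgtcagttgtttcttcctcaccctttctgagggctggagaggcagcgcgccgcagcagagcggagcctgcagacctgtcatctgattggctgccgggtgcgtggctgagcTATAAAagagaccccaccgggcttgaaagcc
Rgs10: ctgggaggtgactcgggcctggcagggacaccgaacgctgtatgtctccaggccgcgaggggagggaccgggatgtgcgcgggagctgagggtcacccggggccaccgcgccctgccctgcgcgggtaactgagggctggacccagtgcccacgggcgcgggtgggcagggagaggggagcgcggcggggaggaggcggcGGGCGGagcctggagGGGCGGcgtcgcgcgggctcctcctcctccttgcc

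Their GC content was 57.2%, 53.6% and 76.4%. The motifs searched on both strands were TAATTA and TAATTG (homeodomain cores), TGACGTCA (the cyclic AMP response element), GGGCGG (the GC box) and TATAAA (the TATA box), none of which overlap each other in these windows. The Rgs4 window holds TATAAA beginning 31 bases before the start. The Rgs10 window holds GGGCGG beginning 50 and 35 bases before the start. None of the 5 motifs occurs in the Rgs8 window. In 32851 mouse promoter windows of the same length, TATAAA occurs in 12.4%, GGGCGG in 32.7%, TAATTG in 7.17%, TAATTA in 4.84% and TGACGTCA in 1.55%. For the members, 31 of 41 matched the table, with 44 windows, of which 8 held TATAAA, 23 held GGGCGG, 1 held TAATTG (Rgs6) and 0 held TAATTA or TGACGTCA. These matches only describe the letters.

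Rgs8 (R4 subfamily, chromosome 1, plus strand, 153653025 to 153700323, GRCm38) had the largest change of the members. RGS8 is a neuronal protein that speeds the gating of G protein-activated potassium channels. It had 1151, 1483 and 2054 normalised counts in control replicates 1, 2 and 3, and 380, 352 and 339 in Tlx3cko replicates 1, 2 and 3. The lowest control was therefore well above the highest Tlx3cko library, and the spread was much wider among controls. Tlx3cko DRGs kept 22.8% of the control level (log2 fold change -2.13 ± 0.17 SE, edgeR adjusted p = 1.29e-05). When single libraries were dropped, the value stayed between -2.31 and -1.88.

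Rgs4 (chromosome 1, minus strand, 169741477 to 169747642) is a brain-enriched R4 gene whose product acts on Gαi/o and Gαq. It had 14282, 19902 and 18918 normalised counts in controls against 9032, 8870 and 9227 in Tlx3cko DRGs. The Tlx3cko libraries lay close together and all below the controls, with 51.1% of the control level left (17701 ± 3001 against 9043 ± 179 normalised counts, SD, n = 3). The log2 fold change was -0.97 ± 0.10 (SE; edgeR adjusted p = 0.000112).

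Rgs10 (R12 subfamily, chromosome 7, minus strand, 128373621 to 128418758) encodes a small regulator of Gαi that is found in neurons and in macrophages and microglia. It had 1498, 2085 and 1942 normalised counts in controls against 1151, 699 and 968 in Tlx3cko DRGs. The groups did not overlap, and Tlx3cko replicate 1 lay nearest to the controls. The log2 fold change was -0.97 ± 0.16 (SE; edgeR adjusted p = 0.00312). Markers of macrophages and lymphocytes (Aif1, Cx3cr1, Csf1r, Ptprc, Cd3e, Cd79a) summed to 562 to 690 normalised counts in controls against 510 to 614 in Tlx3cko DRGs, and 0 of the 6 passed the threshold. That sum is mostly Csf1r (means of 515 in control and 486 in Tlx3cko libraries), so it says little about the rarer markers. Cx3cr1 had 31, 48 and 33 counts in controls against 11, 10 and 24 in Tlx3cko replicates 1, 2 and 3. Its fitted log2 fold change, -1.17, did not pass (edgeR adjusted p = 0.177). Cd3e lay above 0, at 0.08, and the other markers lay between -0.54 (Ptprc) and -0.08 (Csf1r). The part of these cells in the Rgs10 value was not tested.

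Rgs11 (R7 subfamily, chromosome 17, plus strand, 26202951 to 26211324) is best known from retinal bipolar cells, where its product turns off Gαo. It had 208, 220 and 192 normalised counts in controls against 342, 331 and 342 in Tlx3cko DRGs, so each group was tight and the groups were well apart. It was 1.63-fold higher in Tlx3cko DRGs (log2 fold change 0.71 ± 0.13 SE, edgeR adjusted p = 0.00522).

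Rgs6 (R7 subfamily, chromosome 12, plus strand, 82588292 to 83162056), known for its role in parasympathetic control of the heart, had 606, 422 and 463 normalised counts in controls against 700, 766 and 694 in Tlx3cko DRGs. The groups did not overlap, but control replicate 1 lay much nearer to the Tlx3cko libraries than the other controls did. The log2 fold change was 0.54 ± 0.13 (SE; edgeR adjusted p = 0.0355). Dropping 1 library at a time removed this call in 5 of 6 fits (edgeR adjusted p up to 0.145, log2 fold change 0.43 to 0.70), the exception being the fit without control replicate 1. With the sex of the libraries as a covariate, where control replicate 3 alone stands for the controls, the log2 fold change was 0.63.

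**Figure D2:**
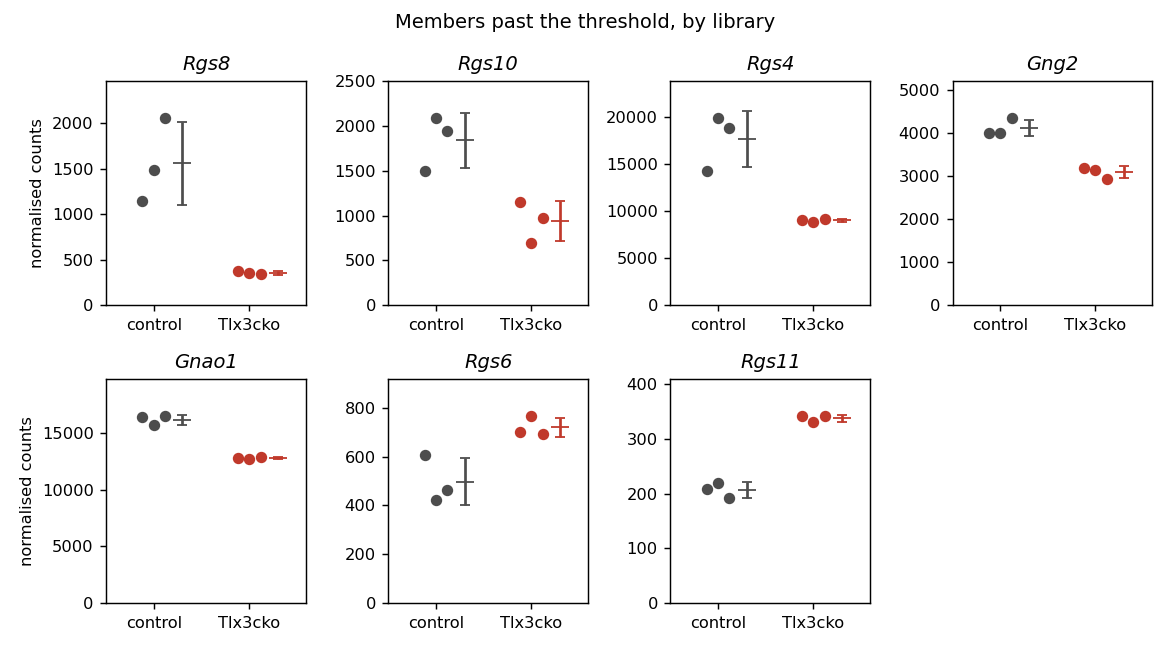
Normalised counts (vertical axis, from 0) of the 7 members past the threshold in each of the 3 control (grey) and 3 Tlx3cko (red) libraries; each dot is 1 library, and the bar beside the dots is the mean with its SD. The 3 Tlx3cko dots of Rgs4 sit between 8870 and 9227, below all control dots, and those of Rgs11 sit between 331 and 342, above all control dots.

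The other R7 genes and the partner genes did not pass the threshold. Rgs7, the R7 gene with the highest level, had 919, 1156 and 1063 normalised counts in controls against 884, 878 and 801 in Tlx3cko DRGs, without overlap. Its log2 fold change of -0.29 (95% interval -0.51 to -0.07) did not pass the threshold (adjusted p = 0.161 from edgeR). Rgs9, a regulator best known from photoreceptors and striatum, was low, with 46.9 to 86.1 normalised counts in controls against 69.5 to 89.5 in Tlx3cko DRGs (log2 fold change 0.29, 95% interval -0.28 to 0.87). The obligate partner gene Gnb5 had 1204 ± 49.7 and 1117 ± 70.8 normalised counts (SD, n = 3), and the membrane anchor gene Rgs7bp had 5541 ± 530 and 5492 ± 307. Neither differed past the threshold, with log2 fold changes of -0.11 (adjusted p = 0.664) and -0.01 (adjusted p = 0.971) from edgeR.

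The remaining R4 genes were Rgs2, Rgs3, Rgs5, Rgs16 and Rgs18. Rgs16, an inducible regulator, had 24.8, 28.9 and 31.1 normalised counts in controls against 32.7, 114 and 65.9 in Tlx3cko DRGs. The groups did not overlap, yet the size of the difference rested on Tlx3cko replicates 2 and 3, and the log2 fold change of 1.30 (95% interval 0.45 to 2.15) missed the threshold (adjusted p = 0.0961 from edgeR). It was called higher by DESeq2, without the filter on low counts, and without Tlx3cko replicate 1. Rgs3, a Gαq and Gαi regulator, had 3019 ± 38.3 and 2884 ± 83.7 normalised counts (SD, n = 3) and a log2 fold change of -0.07 (95% interval -0.22 to 0.09). An annotated processed pseudogene, Gm5763, shares up to 1410 bases with Rgs3 transcripts at 98% identity or more, so reads of the pair may have been split. Rgs5, a pericyte and smooth muscle gene, had a log2 fold change of -0.28 (95% interval -0.54 to -0.02, adjusted p = 0.299 from edgeR) and was called lower without control replicate 1. Rgs2, which acts on Gαq, had 186 ± 20.7 and 204 ± 23.7 normalised counts. Rgs18, a gene of platelets and other blood cells, had at most 9 counts in any library, and no difference was detectable at this depth (95% interval of the log2 fold change -2.35 to 2.25).

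A number of RGS genes lie next to each other on chromosome 1, and their values are given pair by pair. Rgs8 and Rgs16 are 40.0 kb apart on the same strand, with log2 fold changes of -2.13 and 1.30. Rgs5 and Rgs4 are 45.7 kb apart on opposite strands, with -0.28 and -0.97. The cluster of Rgs2, Rgs13, Rgs1, Rgs21 and Rgs18 (143999338 to 144775435) held 4 genes with at most 25 counts in total, and Rgs2 was the exception with 1163.

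Rgs12 and Rgs14, the multidomain R12 genes, had 315 ± 42.4 and 142 ± 18.9 normalised counts in control and 275 ± 28.4 and 111 ± 24.3 in Tlx3cko DRGs (SD, n = 3), and neither passed the threshold (adjusted p = 0.629 and 0.497 from edgeR). The 3 RZ genes, whose products act mostly on Gαz and Gαi, had log2 fold changes above 0 and none passed. These were 0.25 for Rgs17, 0.20 for Rgs19 and 0.41 for Rgs20, with adjusted p of 0.58, 0.663 and 0.614 from edgeR. Rgs17 had 563, 444 and 780 normalised counts in control and 679, 659 and 790 in Tlx3cko DRGs, with overlap. With the sex of the libraries as a covariate its log2 fold change was -0.14, but there control replicate 3 (780) alone stands for the controls. Gαz itself, Gnaz, had 1340 ± 28.6 normalised counts in control and 1486 ± 102 in Tlx3cko DRGs (log2 fold change 0.15, adjusted p = 0.468 from edgeR).

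Among the Gα genes of the i/o/z class, Gnao1 (chromosome 8, plus strand, 93809966 to 93969388), which encodes the major Gα of nervous tissue, fell from 16386, 15680 and 16496 normalised counts to 12766, 12698 and 12904. Both groups were tight, and Tlx3cko DRGs kept 79.0% of the control level (log2 fold change -0.34 ± 0.06 SE, edgeR adjusted p = 0.00661). Without Tlx3cko replicate 2 the adjusted p was 0.0573, with a log2 fold change of -0.33. The other members of this class did not pass the threshold. Gnai2, a broadly expressed Gαi gene and the highest of the class per length, had 5819, 5885 and 5729 normalised counts in controls against 5143, 4884 and 5031 in Tlx3cko DRGs. These did not overlap, with a log2 fold change of -0.21 (95% interval -0.36 to -0.07, adjusted p = 0.114 from edgeR). Gnai1 lay in the opposite direction without overlap, at 2193 ± 149 and 2636 ± 107 normalised counts (log2 fold change 0.27, 95% interval 0.09 to 0.44, adjusted p = 0.0904 from edgeR), and DESeq2 called it higher. Gnai3 had a log2 fold change of -0.15 (95% interval -0.36 to 0.07).

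Gnas, which encodes Gαs, had 35746 ± 1480 normalised counts in control and 38200 ± 351 in Tlx3cko DRGs (SD, n = 3), with a log2 fold change of 0.10 ± 0.06 (SE; edgeR adjusted p = 0.556). This value covers only part of the reads of the locus. Gm20721, annotated on the other strand with 99.0% of its exonic bases under exons of Gnas, was listed with 95790 ± 5077 and 109265 ± 14338 normalised counts. The library kit named by the study and the notes used here do not say that strand was kept or counted, so reads of the pair cannot be told apart. With both rows summed, the log2 fold change was 0.16 ± 0.07 (SE; edgeR adjusted p = 0.332). Gnal, the Gαolf gene, had 8072, 7939 and 10157 normalised counts in controls against 8142, 7705 and 7323 in Tlx3cko DRGs, with overlap between the groups (edgeR adjusted p = 0.444). Gna12 and Gna13 form a Gα class of their own. Gna12 had 2723, 2856 and 2596 normalised counts in control and 2428, 2435 and 2461 in Tlx3cko DRGs, without overlap (log2 fold change -0.16, edgeR adjusted p = 0.341). Gna13 had 1405 ± 98.4 and 1562 ± 111 (log2 fold change 0.15, 95% interval -0.04 to 0.34).

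None of the 5 Gβ genes passed the threshold over all genes, while 2 of them had an unadjusted p under 0.05 in edgeR, and all 5 had log2 fold changes below 0, between -0.37 and -0.11. Of all genes tested, 14.5% had such a p and 50.7% lay below 0. Gnb4 alone was called under an alternative, as lower: without the filter on low counts. It was also lower with sex as a covariate, where control replicate 3 alone stands for the controls. Gnb1, the most abundant Gβ gene, had 13507, 13699 and 13973 normalised counts in controls against 12626, 12769 and 12141 in Tlx3cko DRGs. The groups did not overlap, but the difference was small (log2 fold change -0.13, 95% interval -0.27 to 0.00, adjusted p = 0.362 from edgeR). Gnb2 had 3842 ± 207 and 3309 ± 185 normalised counts (log2 fold change -0.21, adjusted p = 0.173). Gnb4 was set apart by control replicate 3, with 2908 normalised counts against 1701 and 1831 in the other controls and 1594 to 1712 in Tlx3cko libraries. Gnb3, known from cone photoreceptors and taste cells, had at most 47 counts in any library.

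Of the 10 Gγ genes, Gng2 alone passed the threshold. Gng2 (chromosome 14, minus strand, 19872559 to 19977627), a Gγ gene common in brain, had 4015, 4010 and 4348 normalised counts in controls against 3188, 3155 and 2938 in Tlx3cko DRGs. Every Tlx3cko value was below every control value, and 75.0% of the control level was left (log2 fold change -0.42 ± 0.07 SE, edgeR adjusted p = 0.00508). The annotation places 20.4% of its exonic bases under a gene on the other strand, Gm48283, which has no matched row in the count table. Whether reads there were counted for Gng2 or dropped cannot be told from these counts. Gng3, a neuronal Gγ gene, had 3641, 4365 and 4126 normalised counts in controls against 4824, 3758 and 3536 in Tlx3cko DRGs, which overlap widely. Its log2 fold change of 0.00 had a 95% interval of -0.24 to 0.24.

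The other Gγ genes were less abundant. Gng8, known from olfactory and vomeronasal neurons, had 240 ± 62.5 normalised counts in control and 331 ± 64.2 in Tlx3cko DRGs (SD, n = 3), with overlap (log2 fold change 0.47, 95% interval 0.06 to 0.88, adjusted p = 0.255 from edgeR), and was called higher without the filter on low counts. Gng4, Gng5, Gng7 and Gng11 had log2 fold changes of -0.28, -0.29, -0.10 and -0.32, and Gng12 had 0.07. Gng13, a taste cell subunit gene, had 7 to 26 counts per library, and 51.6% of its exonic bases lie under Chtf18 on the other strand. Gng10 had 0 to 5 counts per library. It shares 72.0% of its exonic bases with Gm20503, a longer gene on the same strand that had 0 counts in every library. Whether reads shared by Gng10 and Gm20503 were dropped cannot be told from these counts. For both Gng13 and Gng10 a difference was not detectable at counts this low. Stretches of Gng5 and Gng4 transcripts also match other annotated genes at 98% identity or more, the pseudogene Gng5-ps among those for Gng5.

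**Figure D3:**
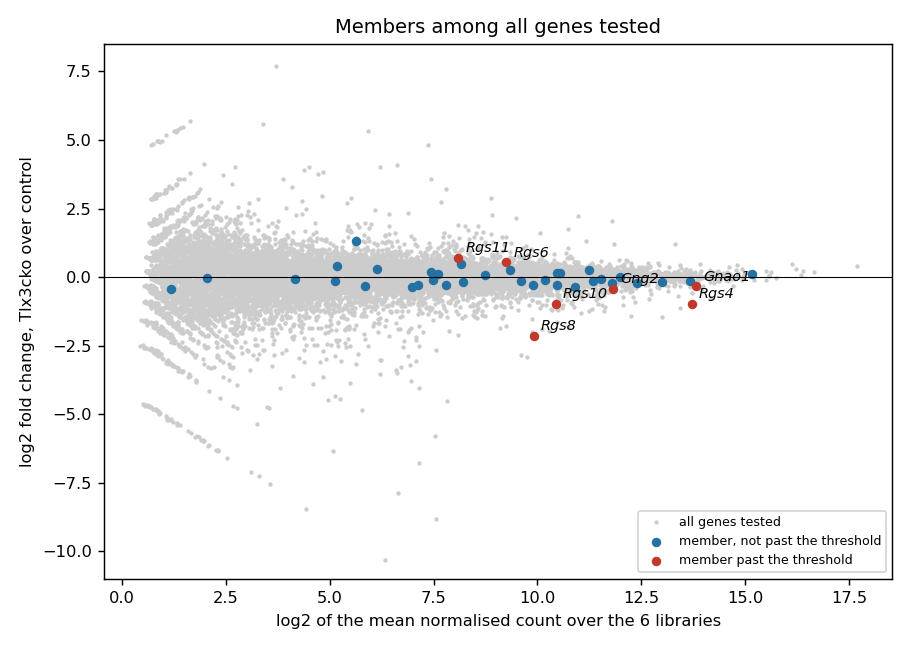
Log2 fold change, Tlx3cko over control (vertical axis), against log2 of the mean normalised count (horizontal axis) for all 20006 genes tested (grey), members past the threshold (red, named) and other members (blue). Rgs4 and Gnao1 stand far to the right among the most abundant genes, and Rgs8 lies at -2.13, far below the other members.

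Levels of different genes can be compared only per length, and were computed as CPM (with TMM library sizes) per kilobase of merged exon. On this scale Rgs4 had the highest row of the members in control DRGs, at 382 ± 64.7, followed by Gnb1 (215 ± 3.67), Gnas (213 ± 8.84, without the Gm20721 reads) and Gng3 (164 ± 15; SD, n = 3 each). With the Gm20721 reads added, Gnas stood above Rgs4, at 785 ± 37.5 in control and 881 ± 84.2 in Tlx3cko DRGs. In Tlx3cko DRGs Rgs4 had a level of 195 ± 3.85, beside 228 ± 2.09 for Gnas and 196 ± 5.15 for Gnb1. The summed level of the 17 RGS genes was 448 to 602 in control and 298 to 323 in Tlx3cko libraries, without overlap. Rgs4 made up 80.8% of the difference between the group means, and the other 16 RGS genes together had 162 ± 19.4 in control and 118 ± 10.5 in Tlx3cko DRGs. The summed level was 609 to 633 and 600 to 606 for the 9 Gα genes (without the Gm20721 reads), 326 to 331 and 290 to 301 for the 5 Gβ genes, and 245 to 274 and 228 to 282 for the 10 Gγ genes.

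Within classes, Rgs4 took 70.0% ± 1.26 of the RGS level in control and 62.3% ± 1.90 in Tlx3cko DRGs (SD, n = 3). Rgs10 took 13.2% ± 0.279 and 11.7% ± 2.39, but Tlx3cko replicate 1 (13.9%) lay above every control, and the difference of -1.55 points became -0.292 without Tlx3cko replicate 2 and -2.68 without Tlx3cko replicate 1. Rgs8 took 1.98% ± 0.407 and 0.790% ± 0.0449. Gnao1 took 15.7% ± 0.204 of the Gα level in control and 12.8% ± 0.151 in Tlx3cko DRGs, and Gng2 took 24.0% ± 1.53 and 19.2% ± 1.76 of the Gγ level. With the Gm20721 reads added to Gnas, the shares of Gnao1 were 8.20% ± 0.329 and 6.17% ± 0.420. The direction of these differences between the group means was kept when the median length of a gene's protein-coding transcripts replaced its merged exons, but their size was not. On that scale Rgs4 took 41.6% ± 1.74 and 36.3% ± 1.78 of the RGS level and 49.5% of the difference in its sum. Rgs8 took 13.1% ± 2.49 and 5.17% ± 0.273, and Gng2 (67.9% ± 1.77 in control) stood above Gng3 (20.9% ± 1.49). The order of Gng2 and Gng3, and that of Rgs17 and Rgs19, therefore depended on the length used. By merged exons the order of Rgs17 and Rgs19 also turned with genotype (4.80 and 4.87 in control, 5.71 and 5.57 in Tlx3cko DRGs), within the spread of the libraries. The highest gene of each other class was the same on both scales.

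**Figure D4:**
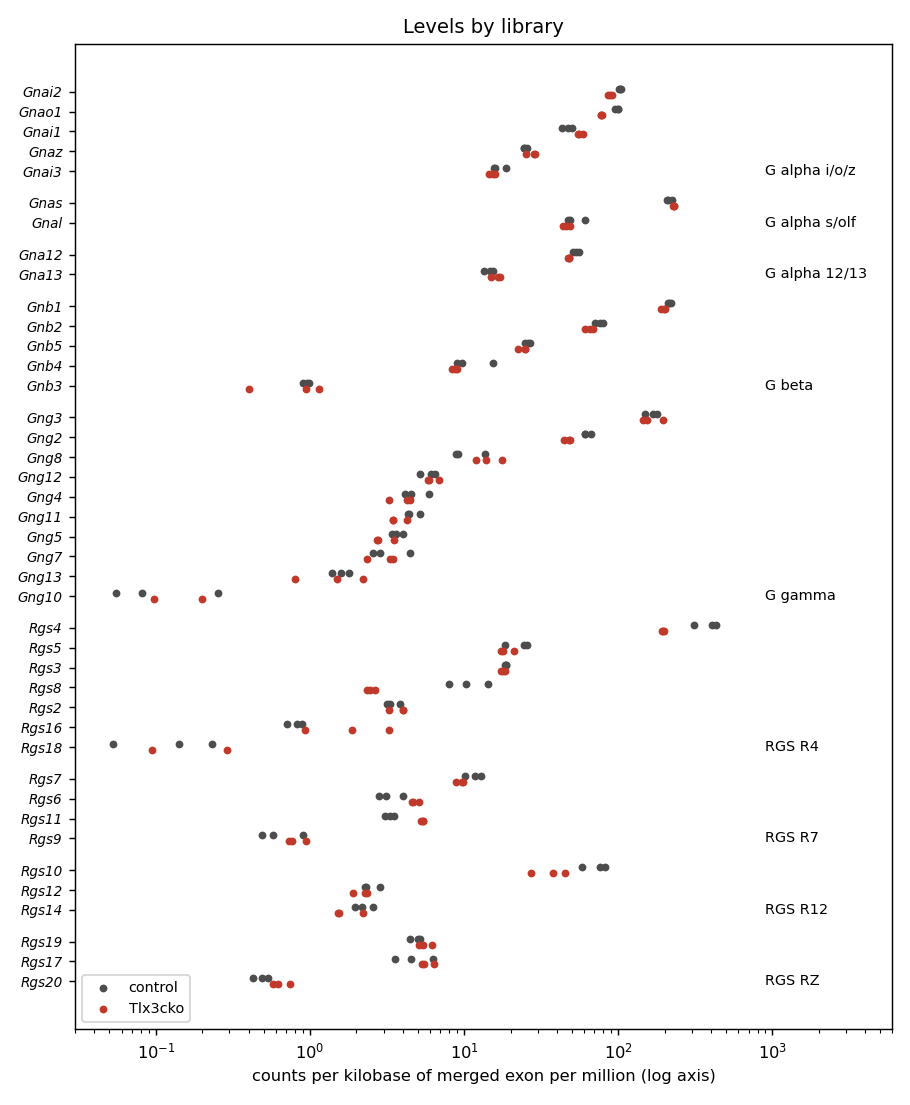
Level of each member (rows, by class) as CPM per kilobase of merged exon (horizontal log axis) in each control (grey) and Tlx3cko (red) library; values of 0 for Gng10 (Tlx3cko replicate 3) and Rgs18 (Tlx3cko replicate 2) are not drawn. Rgs4 lies highest in control at a mean of 382 when the Gm20721 reads are left out of Gnas (785 with them), and Gng10 and Rgs18 lie lowest.

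Genes that act beside the members were read from lists of other G protein subunits and partners, chaperones and modulators, receptor kinases and arrestins, phospholipase C β, adenylyl cyclases and G protein-gated potassium channels, and from a list of 3 further genes of which none passed the threshold in edgeR. Of 49 tested genes in these lists, 3 were lower and 3 higher in Tlx3cko DRGs past the threshold, or 12.2% beside 4.25% of all genes. Those lower were Plcb3 (log2 fold change -0.68, adjusted p = 0.000118), the phospholipase C β gene with the most counts, and the receptor kinase genes Grk3 (-0.66, adjusted p = 0.0119) and Grk2 (-0.37, adjusted p = 0.00755), all from edgeR. Those higher were Plcb1 (1.16, adjusted p = 5.2e-05), Gpsm3 (0.99, adjusted p = 0.0155), a modulator that binds Gαi-GDP, and the β-arrestin gene Arrb1 (0.37, adjusted p = 0.0393).

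In the phospholipase C β genes the values ran in opposite directions. Plcb1 had 348, 321 and 495 counts in controls against 781, 628 and 887 in Tlx3cko DRGs, while Plcb3 had 11812, 13679 and 15825 against 8913, 6323 and 7634. The Gαq class genes, which act upstream of these enzymes, held no call. Gna14 came nearest, at 1598 ± 55.6 and 1299 ± 37.7 normalised counts (log2 fold change -0.30, adjusted p = 0.0506 from edgeR), and Gnaq had 5512 ± 559 and 5104 ± 162. None of the 9 adenylyl cyclase genes tested and none of the 3 channel genes tested (Kcnj3, Kcnj6, Kcnj9) passed the threshold in edgeR. Kcnj3 had 397 ± 62.3 and 356 ± 30.1 normalised counts, and the others had at most 48 counts in any library.

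Markers of neuron classes moved with the genotype in the same libraries. All 5 markers of the MrgprD class (Mrgprd, Lpar3, Gfra2, Plxnc1, Ggta1) were lower past the threshold, with sums of 12055 to 14896 normalised counts in controls against 6321 to 7092 in Tlx3cko DRGs. The 3 markers of C-fibre touch neurons tested (Th, Slc17a8, Fam19a4) were lower too, from 1412 to 2778 down to 399 to 512. So were 2 of 3 markers of the MrgprA3 class (sums of 2922 to 3605 and 2291 to 2803) and 3 of 4 of the Nppb and Sst class (974 to 1310 and 38.1 to 173). The MrgprA3 class sum is mostly Gfra1, which did not pass (means of 2849 in control and 2481 in Tlx3cko DRGs). The called markers of that class were Mrgpra3 (means of 270 and 16.3) and Hrh1 (133 and 16.3). In the Nppb and Sst class the marker that did not pass was Nts (means of 107 and 70.8), with 150, 6 and 61 counts in Tlx3cko replicates 1, 2 and 3. The called markers there were Nppb (284 and 2.5), Sst (366 and 6.74) and Il31ra (433 and 19). Of 4 peptidergic markers 3 were higher (21963 to 23271 and 37752 to 41073), as were 2 of 4 of the myelinated class (25816 to 27639 and 32969 to 35205). The part of these shifts in the values of the members was not tested.

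None of the 4 satellite glia and 5 Schwann cell markers passed the threshold, with sums of 34815 to 44264 and 34437 to 41694 normalised counts in controls against 40935 to 45955 and 36987 to 41941 in Tlx3cko DRGs. The same held for 4 blood markers (1344 to 3508 and 1556 to 2169). Of 5 endothelial and mural markers 1 was higher, Pecam1 (sums of 767 to 1051 and 977 to 1050), and of 5 skeletal muscle markers 1 was higher, Myh4 (sums of 102 to 1567 and 1323 to 2785). No marker of these lists was at 0 in all libraries.

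The fits were repeated under 14 alternatives of scaling, filter, test, covariate and left-out library. In that with sex as a covariate, control replicate 3 alone stands for the controls in the genotype term. Rgs8, Rgs4, Rgs10, Gng2 and Rgs11 stayed past the threshold in all 14, Gnao1 in 13 and Rgs6 in 8.

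**Figure D5:**
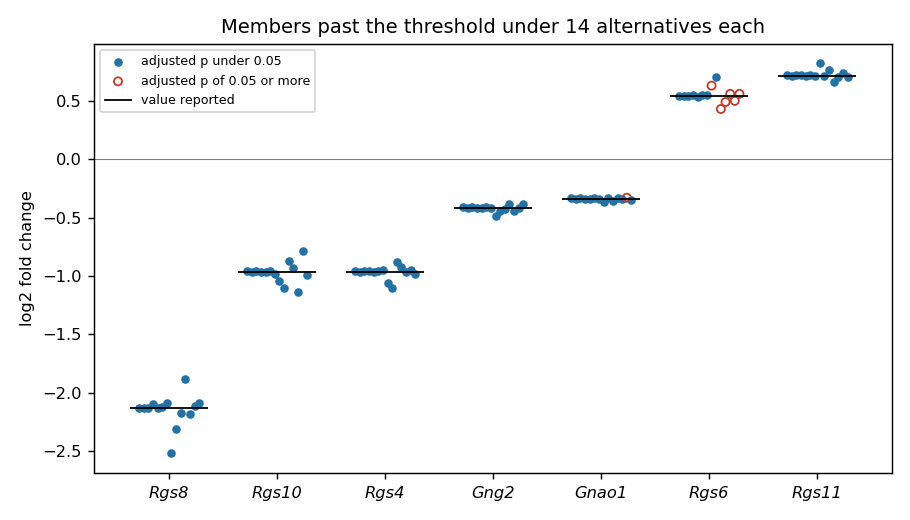
Log2 fold change, Tlx3cko over control (vertical axis), of the 7 members past the threshold under each of 14 alternatives (dots, spread sideways by alternative); filled dots have an adjusted p under 0.05, open dots do not, and black lines are the values reported. Open dots occur for Rgs6 (6 of 14) and Gnao1 (1 of 14).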

How the data were processed

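Total RNA of DRGs from 3 control and 3 Tlx3cko mice had been sequenced as 150 bp paired-end reads on 1 platform. The authors deposited raw counts of reads per gene, without normalization; the submitters' processing notes name STAR 2.5.2a and mm10, while the counting program, annotation and use of strand are not given in the sources used here. The table holds 47729 Ensembl rows, of which 47224 matched a symbol in GENCODE M21 (GRCm38, the same assembly as mm10), and 208 rows outside that annotation with 0.245% of the counts. All 6 count columns were used.

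Genes with at least 10 counts in total were normalised by TMM and tested with edgeR 4.0.16 (glmQLFit and glmQLFTest, R 4.3.3), with Benjamini-Hochberg adjustment over 20006 genes and 0.05 as the threshold. Standard errors and 95% intervals came from the F statistic. Two-sided tests were used throughout. With 3 libraries against 3 an exact permutation test on one gene cannot go below p = 0.1, so none is given. Transcripts were compared with blastn 2.17.0+ to find near-identical stretches (at least 100 bases, 98% identity). The fit was tested on simulated data with 200 genes changed 2-fold. It recovered 71.5% of these, and 4.03% of its calls were false. Replicates of a genotype differed by more than sampling noise (chi-square per degree of freedom 4.32 to 10.1) and were kept as separate samples. Whether replicates are separate animals is stated by the study and not by the labels. If they are not, p-values measure only the spread between these samples, which may be technical.

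Genes described in full were those past the threshold and the highest member of each class per length, and other genes were given by class. Genes of the other lists were named where they passed the threshold, and Gna14, Gnaq, Rgs7bp and Kcnj3 were named after their values were seen. The members and lists were chosen with earlier results of these data known. Alternatives were DESeq2 1.42.0, limma-voom 3.58.1, other scalings, filters and thresholds, the replicate number as a block, the sex of the libraries, and each library left out. Summing Gnas with Gm20721 and the median transcript length were added after seeing the data.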

Additional observations from a re-analysis of the deposited data

How the results depend on the processing

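Across 14 alternatives each, Rgs8, Rgs4, Rgs10, Gng2 and Rgs11 kept their direction and their side of the threshold, and Gnao1 did so in 13 and Rgs6 in 8. The number of members lower in Tlx3cko was 5, between 4 (Gnao1 lost without Tlx3cko 2) and 6 (Rgs5 added without control 1) with each library left out, and 3 when at least a 1.5-fold change was required. The number higher was 2. With each library left out it was between 1 and 2 (1 without either control 2 or 3, or either Tlx3cko 2 or 3). It was 4 with DESeq2 (Gnai1 and Rgs16 added) and 4 without the filter on low counts (Gng8 and Rgs16 added). At an adjusted p under 0.01 it was 1, and with at least a 1.5-fold change it was 1. The cause was not tested. Over all genes, the 851 calls became 1529 without the filter on low counts, and between 488 and 938 with each library left out. With the replicate number as a block, 5 members were lower and 2 higher. The deviations of same-numbered libraries from their group means had correlations of -0.129, -0.016 and -0.106. With group means of only 3 libraries, these values cannot show whether the numbers pair the libraries. The sign of Gng3 was not fixed: 0.00 with DESeq2's size factors, 0.00 with DESeq2, 0.01 with filterByExpr, and between -0.15 and 0.09 with each library left out. Rgs17 gave -0.14 with sex as a covariate. Tlx3 gave -0.38 with sex as a covariate, a fit in which control 3 alone stands for the controls. With each library left out Tlx3 gave between -0.54 and -0.39, and leaving out control 2, Tlx3cko 2 or Tlx3cko 3 ended its call (edgeR). With the median transcript length, differences in class share became 5.25 percentage points for Gnas, -3.44 for Gnao1, -7.18 for Gng2, -5.27 for Rgs4 and -7.98 for Rgs8, and with Gm20721 added to Gnas that of Gnao1 became -2.02. All scalings left the median of all genes within 0.01 of 0. Low counts limit Gng10 and Rgs18, with 13 and 25 in all, and reads that Gng10 shares with Gm20503 may not have been counted.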

Other observations

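The annotation places 18 genes on the other strand over exons of 16 members. Of the 15 that were tested, 2 passed the threshold (edgeR), and these are described, picked after their values were seen. Nespas, a non-coding antisense gene of the imprinted Gnas locus (chromosome 2, minus strand, 174281237 to 174295436), had 46, 34 and 41 counts in controls against 222, 128 and 212 in Tlx3cko DRGs. Every Tlx3cko library was far above every control, with a log2 fold change of 2.35 ± 0.22 (SE; edgeR adjusted p = 3.84e-05), whereas the Gnas row had 0.10. Exons of Gnas cover 31.4% of the exonic bases of Nespas, so reads from either strand there cannot be told apart without strand.

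Gm29529, antisense within Rgs8 (chromosome 1, minus strand, 153690391 to 153692656), had 147, 183 and 306 counts in controls against 55, 46 and 51 in Tlx3cko DRGs. The log2 fold change of this row was -1.85 ± 0.21 (SE; edgeR adjusted p = 0.000186), beside -2.13 for Rgs8. Exons of Rgs8 cover 9.80% of its exonic bases, and the rest lies inside the span of that gene, where unspliced Rgs8 RNA would map too. The source of these reads was not tested.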
